A study of Drosophila melanogaster with 2 samples.

Results

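The mitochondrial ribosomal protein genes are the nuclear genes whose products make up the ribosome inside mitochondria. They were taken as the protein-coding genes whose symbol starts with mRpL, for the large subunit, or mRpS, for the small subunit, in the Ensembl annotation of dm6. There were 73 of them among 13968 protein-coding genes on the chromosome arms, 47 of the large and 26 of the small subunit. They were examined in chromatin immunoprecipitation followed by sequencing on whole Drosophila melanogaster embryos of the Scr-GFP strain, collected at 0 to 24 h. The line carries an insertion by which Sex combs reduced (Scr), a Hox transcription factor, is made fused to eGFP. Per the labels, the immunoprecipitation used an anti-GFP antibody, while the antibody field names Scr, and the sonicated chromatin measured 200 to 800 bp. All samples belonged to 1 group, with 2 biological replicates and no second genotype, treatment or stage. Sequencing depth is unknown from the files.

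A mitochondrial ribosome translates the few messenger RNAs of the mitochondrial genome, which in animals encode subunits of the respiratory chain and the ATP synthase. Its ribosomal RNAs come from the mitochondrial genome, whereas its proteins are encoded in the nucleus, made in the cytosol and imported. Some of these proteins belong to families that bacterial ribosomes also have, and the rest were gained in the mitochondrial lineage. The genes are broadly expressed housekeeping genes. Promoters of such genes in Drosophila often lack a TATA box and carry sites such as those of DREF, a factor of genes for growth and replication, of M1BP, and of BEAF-32, an insulator protein, or an E-box, the 6-base palindrome read by basic helix-loop-helix proteins.

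The following sets of windows show the sequence at these promoters, read from release 6 of the genome on the strand of the gene, 5′ to 3′. Capitals mark 4 sites on either strand: TATCGATA (DREF), GGTCACAC (M1BP), CGATA (the core of BEAF-32, which also lies inside the DREF site) and CAGCTG (an E-box). The first set is centred on the summits, the points of highest enrichment within a peak, and runs 50 bases to either side, but no further than 29 bases past the gene's start. It holds 4 of the strongest genes with a DREF or M1BP site there and then 3 of the strongest with neither.
mRpL10, chr2L:203686-203786, plus strand: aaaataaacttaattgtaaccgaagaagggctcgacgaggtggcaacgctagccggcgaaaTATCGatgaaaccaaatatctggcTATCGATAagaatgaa
mRpL3, chrX:15761197-15761277, plus strand: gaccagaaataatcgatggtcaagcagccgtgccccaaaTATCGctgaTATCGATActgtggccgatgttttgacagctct
mRpL48, chr2L:1710405-1710491, plus strand: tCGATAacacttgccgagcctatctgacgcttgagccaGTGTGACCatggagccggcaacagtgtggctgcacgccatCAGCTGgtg
mRpS25, chrX:14582980-14583080, minus strand: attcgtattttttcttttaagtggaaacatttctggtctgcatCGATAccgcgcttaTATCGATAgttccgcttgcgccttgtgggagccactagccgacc
mRpL39, chr3L:14999839-14999939, minus strand: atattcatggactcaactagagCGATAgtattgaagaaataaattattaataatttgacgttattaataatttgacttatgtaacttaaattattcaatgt
mRpL4, chr2L:16329107-16329207, minus strand: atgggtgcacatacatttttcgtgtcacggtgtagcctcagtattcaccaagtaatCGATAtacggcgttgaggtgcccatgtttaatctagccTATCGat
mRpL17, chr3L:264408-264508, plus strand: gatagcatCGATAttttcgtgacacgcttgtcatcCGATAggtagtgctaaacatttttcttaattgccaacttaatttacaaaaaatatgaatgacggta

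The second set runs from 70 bases before to 29 after the transcription start site (TSS) of the canonical transcript. It shows 3 genes with a summit in the main list and then 3 without, all with an E-box centred within 50 bp of the TSS. This set was chosen after its values were seen. Of the last 3, mRpL11 and mRpL24 had a summit in other lists, and mRpL47 had a strong entry before thresholding, as given below.
mRpL17, chr3L:264709-264808, plus strand: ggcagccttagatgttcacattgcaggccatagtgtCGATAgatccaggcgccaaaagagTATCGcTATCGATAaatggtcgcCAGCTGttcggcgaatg
mRpL33, chrX:4322202-4322301, minus strand: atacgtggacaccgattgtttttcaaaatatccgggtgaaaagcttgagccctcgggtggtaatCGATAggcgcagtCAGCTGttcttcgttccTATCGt
mRpL32, chr3R:31252802-31252901, plus strand: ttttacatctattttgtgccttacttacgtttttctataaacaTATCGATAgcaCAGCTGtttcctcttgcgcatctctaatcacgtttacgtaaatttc
mRpL47, chr3R:9515879-9515978, minus strand: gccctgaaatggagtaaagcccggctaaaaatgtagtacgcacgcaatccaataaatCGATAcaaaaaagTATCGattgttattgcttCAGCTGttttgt
mRpL11, chr3R:14511768-14511867, plus strand: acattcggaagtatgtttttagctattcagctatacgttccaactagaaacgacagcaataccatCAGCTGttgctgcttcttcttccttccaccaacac
mRpL24, chr2L:4945332-4945431, minus strand: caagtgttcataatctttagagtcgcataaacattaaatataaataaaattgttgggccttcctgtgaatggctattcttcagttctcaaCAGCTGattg

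Of the 73 genes, 53 (72.6%) had a summit within 500 bp of a TSS of their own in the main list, the series-level thresholded list made from both replicates. Over all protein-coding genes the share was 36.2%. The conservative series-level list had a summit at 50 of the 73 (68.5%, against 36% of all genes), replicate 1's own list at 46 (63%, against 30.8%) and replicate 2's own list at 41 (56.2%, against 30.4%). The share of these genes was thus above that of all genes in each of the 4 thresholded lists, and the lowest value, from replicate 2, was 25.7 percentage points above it. A summit was present in all 4 lists at 37 genes (50.7%), against 26.1% of all genes. The series-level lists were made from both replicates' alignments, so they are not independent of the replicates' lists. Genes are not replicates, and no test was made on these counts. In whole embryos, strong occupancy in a few cells and weak occupancy in many cannot be told apart.

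**Figure D1:**
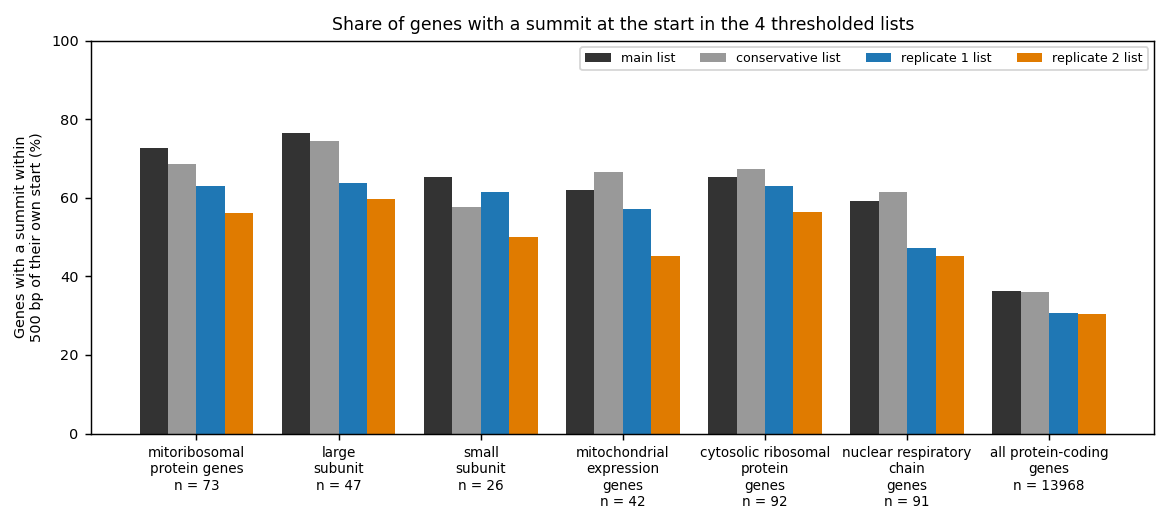
Share of genes (%, vertical axis) with a summit within 500 bp of their own start, for each gene set (horizontal axis, with its number of genes) in the 4 thresholded lists (bars). The mitochondrial ribosomal protein genes lie between 56.2% and 72.6%, and all protein-coding genes between 30.4% and 36.2%.

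Both subunits took part. The subunit and the family were read from the letter and number of the symbol alone, and neither was checked against the proteins themselves. By symbol, the large subunit had a summit at 36 of 47 genes (76.6%) and the small subunit at 17 of 26 (65.4%) in the main list. In replicate 1's list the shares were 63.8% and 61.5%, and in replicate 2's 59.6% and 50%, so the gap between the subunits ranged with the list. Families that bacteria also have, numbered up to 36 in the large and up to 21 in the small subunit, had a summit at 32 of 42 genes (76.2%), with a median signal of 168. Families found in mitochondrial ribosomes had one at 21 of 31 (67.7%), with a median signal of 208. The order of these medians was the opposite in the replicates' own lists, at 142 for the bacterial and 127 for the mitochondrial families in replicate 1, and 194 and 130 in replicate 2. The signal is the authors' value per peak, and no source used here states its scale relative to depth or control.

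In the main list the peaks at these genes had a lower median signal than those at all promoters, with wide overlap. Their median signal in the main list was 188, with an interquartile range of 107 to 513, against 232 (109 to 534) over all 5062 protein-coding genes with a summit. In replicate 1's list the medians were 129 against 161, and in replicate 2's 141 against 147. At genes with a summit in both replicates' lists they were 192 against 197.5 in replicate 1 and 182.6 against 178.1 in replicate 2. The lower median thus did not hold in every comparison. Of the 53 genes, 24 lay above the median of all genes with a summit. A signal over 1000 was reached by 5 of the 53, and by 414 of the 5062 genes with a summit (8.18%). Among the 5720 main peaks on the arms, 7 of the 53 lay in the top 10%, at a signal of 684 or more. The median of all main peaks was lower, at 134, so 10% is not the share of genes with a summit above this signal.

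The strongest was mRpL39, a large-subunit protein of the mitochondrial lineage, at 1843 (main), 1045 (replicate 1) and 780 (replicate 2). Its summit lay at 14999889 on 3L, 223 bp upstream of its TSS and 62 bp from the TSS of the divergent gene Prosbeta2, which encodes a catalytic subunit of the proteasome core, so which gene of this pair the peak belongs to cannot be told. mRpL37, also of the mitochondrial lineage, had signals of 1648 (main), 972 (replicate 1) and 686 (replicate 2), at a summit 156 bp upstream of its own TSS.

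mRpL4, a protein of the bacterial L4 family that reaches into the exit tunnel, had signals of 1568 (main), 819 (replicate 1) and 742 (replicate 2). Its summit, at 16329157 on 2L, lay 25 bp upstream of its TSS, and no other protein-coding gene had a TSS within 500 bp. mRpL10, which anchors the stalk that recruits translation factors, was likewise alone at its summit, at 203736 on 2L and 43 bp upstream, with 908 (main), 506 (replicate 1) and 401 (replicate 2). Among these 4 genes, replicate 1 was the higher library each time. They are not the 4 strongest, and mRpL42, stronger than mRpL10 in the main list, was higher in replicate 2 (460 in replicate 1 and 545 in replicate 2).

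Other strong genes, of which mRpL17 and mRpL42 lay above mRpL10 in signal, shared their starts more often than not. mRpL17 (1302) had its strongest summit 321 bp upstream, 78 bp from the TSS of Tudor-SN, which encodes a staphylococcal nuclease-like protein. A weaker main summit of mRpL17, with a signal of 476.5, lay 120 bp upstream of its TSS. mRpL42 (1012) had its summit 28 bp upstream, with PIG-N, an enzyme gene of GPI anchor synthesis starting 108 bp from it. mRpS17, the strongest small-subunit gene (802; 459 in replicate 1 and 323 in replicate 2), lay 42 bp from its summit, with the pseudouridine synthase gene Nop60B 394 bp from it. mRpS23 had 654, mRpL33 600 and mRpL34 590, and the last 2 had their strongest summits 319 and 245 bp upstream, nearer to the starts of norpA and Dg. A weaker main summit of mRpL34, with a signal of 168.5, lay 41 bp upstream of its own TSS. mRpL3, whose family sits beside the peptidyl transferase centre, had 580 at a summit 1 bp upstream of its TSS and was alone there. mRpL20 had 555, at a summit 155 bp upstream of its TSS and 244 bp from that of Icmt.

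**Figure D2:**
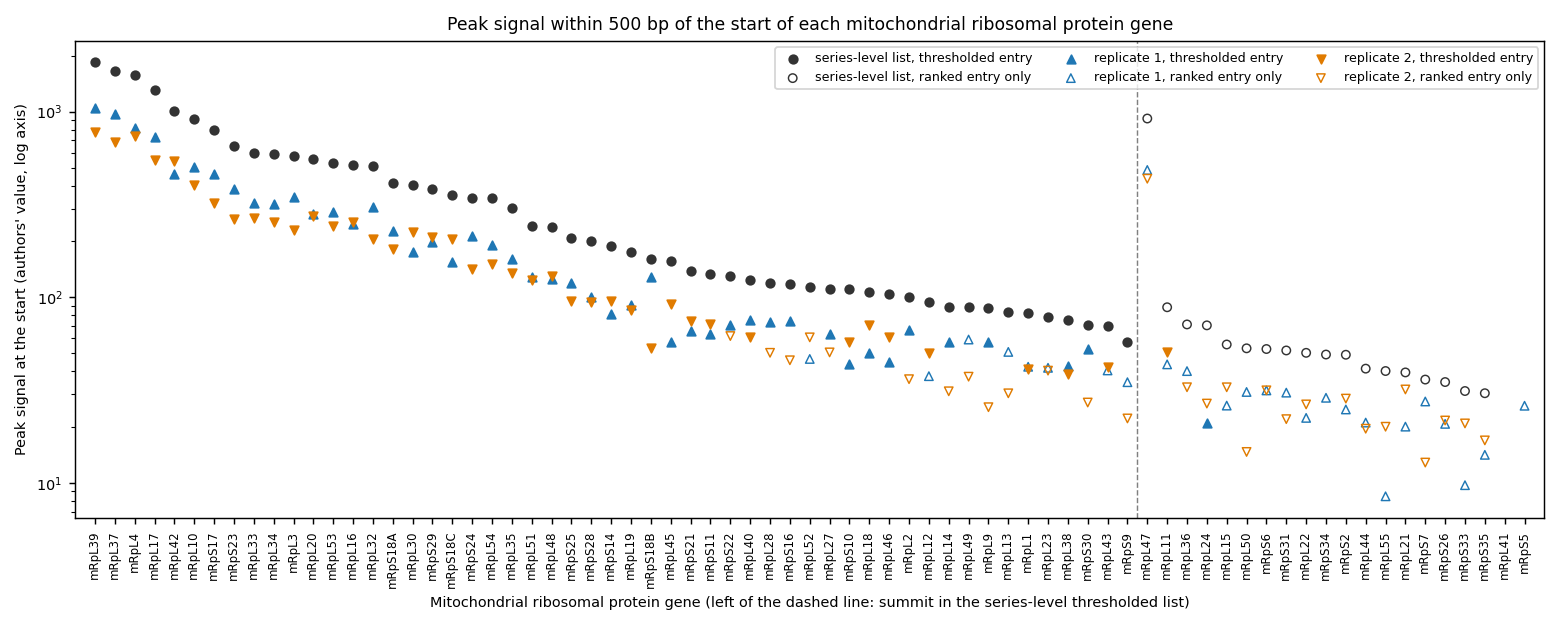
Peak signal within 500 bp of the start (vertical log axis, the authors' value) for each of the 73 genes (horizontal axis, ordered by signal), in the series-level list (circles), replicate 1 (upward triangles) and replicate 2 (downward triangles). Filled symbols are thresholded entries and open ones are in the ranked list only. The 53 genes left of the dashed line run from 1843 at mRpL39 to 57.4 at mRpS9, and mRpL47, at 919, is the highest to its right.

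At the lower end, 12 of the 53 genes had a signal under 100. This was not counted over all genes with a summit, whose lower quartile was 109, against 107 here. The 5 weakest were mRpL23 (78.2), mRpL38 (75.05), mRpS30 (71.1), mRpL43 (69.7) and mRpS9 (57.4). The summit of mRpS9 lay 245 bp inside the gene, in coding sequence, with a score of 845 against a lowest listed score of 830. The summits of mRpS30 and mRpL43 were the farthest from their own TSS, at 447 and 426 bp upstream. They lay nearer to the starts of Paf-AHalpha and CG30183, at 17 and 145 bp. Just outside 500 bp were mRpL55, with a summit of signal 355 at 561 bp downstream, and mRpL41, with one of 842 at 694 bp upstream.

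Replicates ranked the genes alike. At the 37 genes with a summit in both replicates' lists, the log2 signals had a Pearson r of 0.96 and a Spearman rho of 0.95, a description across genes that share their libraries. The log2 ratio (replicate 1 over 2) had a median of 0.16 and an SD of 0.40, and replicate 1 was higher at 24 genes and replicate 2 at 13. Over all 3694 protein-coding genes with a summit in both lists the median ratio was also 0.16, with an SD of 0.37. mRpS18B stood farthest apart, with 129 in replicate 1 and 53.2 in replicate 2, a log2 ratio of 1.28. The next highest ratios were those of mRpL3 (348 and 229, log2 ratio 0.60) and mRpS24 (213 and 141, log2 ratio 0.59). The lowest ratios were those of mRpL45 (57.5 and 91.9, log2 ratio -0.68), mRpL18 (50.2 and 70.8, log2 ratio -0.50) and mRpL46 (44.8 and 60.8, log2 ratio -0.44).

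**Figure D3:**
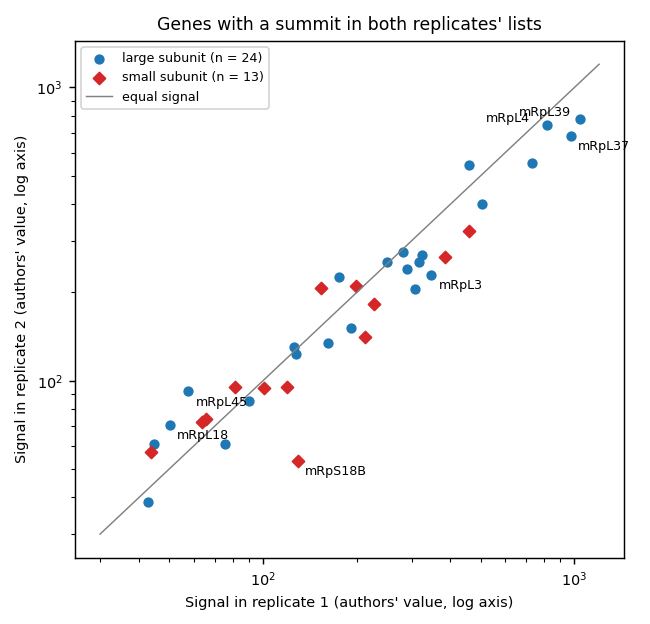
Signal in replicate 1 (horizontal log axis) and replicate 2 (vertical log axis) for the 37 genes with a summit in both replicates' thresholded lists, by subunit, with the line of equal signal. Points follow the line up to mRpL39 at 1045 and 780, and mRpS18B lies farthest below it.

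The main peak overlapped a peak of both replicates' lists at 37 of the 53 genes. It overlapped one of replicate 1 alone at mRpL2, mRpL9, mRpL14, mRpL27, mRpL28, mRpS16, mRpS22 and mRpS30, and one of replicate 2 alone at mRpL1, mRpL12 and mRpL43. At mRpL13, mRpL23, mRpL49, mRpL52 and mRpS9 it overlapped neither. These 16 genes had main signals from 57.4 to 131, with a median of 88.4. The genes with a summit in both replicates' lists ran from 75.05 to 1843, with a median of 357. The genes without support from both replicates were therefore in the lower part of the range, with some overlap. Over all genes, 3649 of the 5062 with a main summit had one in all 4 lists, as had 37 of the 53 here. The loss of support in a replicate is thus not shown to be particular to these genes.

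Most summits lay close to and upstream of the TSS. The median distance was 57 bp, 35 of 53 summits (66%) lay within 100 bp, and 43 (81.1%) were upstream. Over all genes with a summit the values were 78 bp, 59.5% and 81.1%. By annotation, 42 of the 53 summits lay upstream of the gene, 9 in its 5′ UTR, 1 in an intron (mRpL23) and 1 in coding sequence (mRpS9). At 10 genes more than 1 main summit lay within 500 bp of a TSS: mRpL1, mRpL3, mRpL17, mRpL20, mRpL30, mRpL34, mRpL51, mRpL53, mRpS17 and mRpS28. Neither these placements nor the genes with several summits were counted over all genes, so they are a description only.

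Many of these genes start close to another gene, which the annotation shows without the peaks. Another protein-coding gene started within 500 bp of a TSS of 54 of the 73 (74%), and for 53 of them at least 1 such gene was divergent, on the opposite strand. Over all protein-coding genes 30.8% had such a neighbour, over cytosolic ribosomal protein genes 40.2% and over nuclear respiratory chain genes 46.2%. Genes with a neighbour had summits more often in the whole annotation, 64.8% against 23.5% of genes without. Among the mitochondrial ribosomal protein genes the shares were 40 of 54 (74.1%) with a neighbour and 13 of 19 (68.4%) without. The genes without a neighbour thus stood farther above their background than those with one, a difference that was not tested.

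At the summits themselves, 40 of 53 (75.5%) had another gene's TSS within 500 bp, against 55.8% over all genes with a summit. The mitochondrial ribosomal protein gene had the nearest TSS at 21 of the 40, and another gene was as near or nearer at 19. All 17 summits at 100 bp or more upstream of the gene's TSS had another gene's TSS within 500 bp. The same count was not made over all genes. The partners had varied functions and none was another mitochondrial ribosomal protein gene. They included Mitofilin at mRpL35, which organises the cristae of mitochondria, qless at mRpL32, of coenzyme Q synthesis, Taz at mRpL18, the cardiolipin remodelling enzyme, and the histone methyltransferase gene trr at mRpL16.

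The 13 genes alone at their summit were mRpL3, mRpL4, mRpL9, mRpL10, mRpL12, mRpL14, mRpL19, mRpL40, mRpL45, mRpL49, mRpS9, mRpS25 and mRpS29. Apart from mRpS9, their summits lay at most 78 bp from the TSS. mRpS29, whose mammalian homologue is the GTP-binding protein DAP3, had its summit on the TSS itself, with 383 (main), 199 (replicate 1) and 210 (replicate 2). mRpL12, the mobile stalk protein that mRpL10 holds, had 94.6 (main) and 50.2 (replicate 2), with no summit in replicate 1's list. The median signal of the genes alone was 156, and of the 40 with shared summits 220. Over all genes with a summit these medians were 164 and 305.

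**Figure D4:**
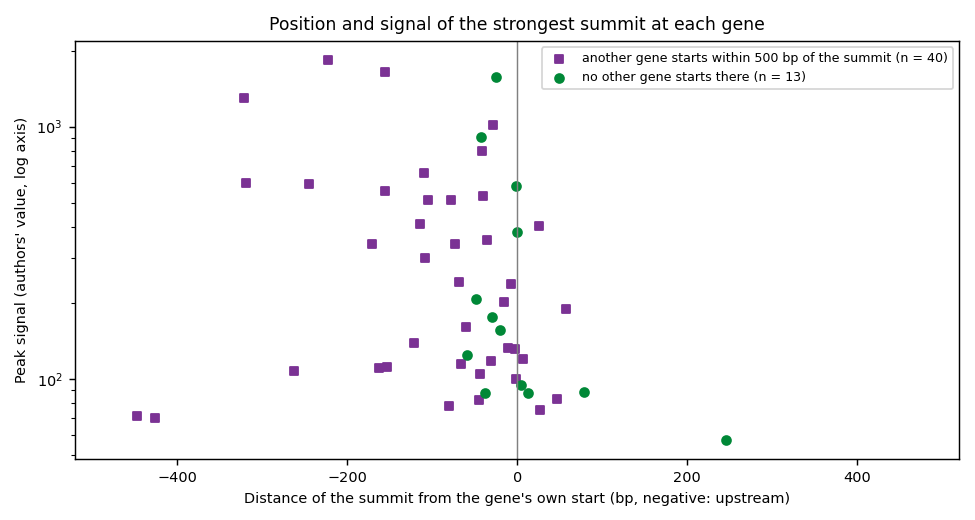
Distance of the strongest main summit from the gene's own start (horizontal axis, bp, negative upstream) and its signal (vertical log axis, the authors' value) for the 53 genes. Squares mark the 40 genes with another gene's start within 500 bp of the summit and circles the 13 without. Summits at 100 bp or more upstream are all squares.

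Of the 20 genes without a summit in the main list, 10 lay on 3L. There 7 of 17 genes (41.2%) had a summit, against 9 of 12 on 2L, 11 of 12 on 2R, 16 of 21 on 3R and 10 of 11 on X. Over all protein-coding genes 3L was no such exception, with 34.8% against 33.1% on 2L, 37.4% on 2R, 35.7% on 3R and 41.7% on X. In each replicate's own list 5 of the 17 genes on 3L (29.4%) had a summit. That was near the share of all genes on 3L, 29.4% in replicate 1 and 28.7% in replicate 2. The 3L genes without a main summit were mRpL15, mRpL21, mRpL36, mRpL50, mRpS5, mRpS6, mRpS26, mRpS31, mRpS34 and mRpS35. The others were mRpL24, mRpS2 and mRpS7 on 2L, mRpL41 on 2R, mRpL11, mRpL44, mRpL47, mRpL55 and mRpS33 on 3R, and mRpL22 on X.

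mRpL47 was unlike the others of the 20. The main ranked list, which holds all entries, had one at 9515639 to 9516235 on 3R with a signal of 919 and the highest score of 1000. Its summit, at 9515959, lay 51 bp upstream of the TSS. Replicate 1's ranked list had 485 there and replicate 2's 435, each also at a score of 1000. This signal would have placed it between mRpL42 and mRpL10, but none of the 4 thresholded lists holds the entry. In the main ranked list on the arms, 5880 entries had a score of at least 830, and 160 of these were absent from the thresholded list. mRpL47 was the only mitochondrial ribosomal protein gene with such an entry at its TSS. The file notes list an additional input to thresholding that was not analysed here, and its part in the absence was not tested.

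Of the other 19, 17 had a ranked entry within 500 bp, with signals from 30.4 at mRpS35 to 88.3 at mRpL11 and a median of 49.1. mRpL11, the protein at the base of the stalk, had a summit in the conservative list and in replicate 2's list (50.5). mRpL36 had one in the conservative list, at 71.4, and mRpL24 one in replicate 1's list, at 21.1. The strongest ranked entry in the series-level list was 70.6 at mRpL24, 55.6 at mRpL15, 53.1 at mRpL50, 52.6 at mRpS6 and 51.7 at mRpS31. It was 50.2 at mRpL22, 49.1 at mRpS34, 49.0 at mRpS2, 41.2 at mRpL44 and 40.0 at mRpL55. Lower still were mRpL21 (39.4), mRpS7 (36.01), mRpS26 (34.9) and mRpS33 (31.2). For mRpL41 no ranked list had an entry, and for mRpS5 only replicate 1's had one (26.0). With the looser score of 540, at which the irreproducible discovery rate is 0.05, 58 of the 73 genes had an entry (41.9% of all genes did). Any entry at all was present at 71 (69.2% of all genes).

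The sites in the promoters differed in how they went with the summits. TATCGATA, the DREF site, lay between 250 bp before and 50 bp after the canonical TSS of 15 of the 73 genes (20.5%), against 8.95% of all protein-coding promoters. Of these 15 genes 14 had a summit in the main list: mRpL3, mRpL4, mRpL10, mRpL12, mRpL16, mRpL17, mRpL19, mRpL20, mRpL32, mRpL39, mRpS18B, mRpS23, mRpS25 and mRpS29. The exception was mRpL22. Over all genes, 87.4% of promoters with the site and 31.2% of those without had a summit, and among these genes 67.2% of those without did. The summit was often some way off the site, as within 50 bp of the summit it was present at 6 of 53 genes (11.3%, against 17.5% of all genes with a summit). In mRpL3 and mRpS29 the centre of the site lay 2 bp from the summit.

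The core CGATA, which the DREF site contains, was in 42 of the 73 promoters (57.5%, against 47% of all), in 36 of the 53 with a summit (67.9%) and in 6 of the 20 without (30%). All genes showed the same contrast, with 67.5% and 35.3%. The 30 genes with CGATA within 50 bp of the summit had a median signal of 350, and the 23 without it 120. Over all genes these medians were 374 and 120. GGTCACAC, the M1BP site, was in 8 promoters (11%, against 7.53% of all), those of mRpL13, mRpL22, mRpL27, mRpL48, mRpL55, mRpS16, mRpS21 and mRpS30. Of these genes 6 (75%) had a summit, which leaves mRpL22 and mRpL55. The share was 72.3% among the 65 without the site, and over all genes 63.9% with it and 34% without.

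The E-box CAGCTG was in 40 of the 73 promoters (54.8%), against 17.9% of all protein-coding promoters. It was in 27 of 47 promoters of the large subunit and 13 of 26 of the small. Cytosolic ribosomal protein genes had it in 9.78% of promoters, nuclear respiratory chain genes in 26.4% and the other genes of mitochondrial gene expression in 47.6%. It sat close to the TSS: the nearest E-box centre was within 50 bp of the TSS at 34 of the 73 genes (46.6%), against 9.58% of all genes. Its share was about equal with and without a summit. It was in 29 of the 53 promoters with a summit (54.7%) and in 11 of the 20 without (55%), whereas over all genes these shares were 24.1% and 14.4%. The 11 genes with an E-box within 50 bp of the summit (20.8% of the 53, against 9.09% of all genes with a summit) had a median signal of 120, and the other 42 had 272. Over all genes these medians were 165 and 242. mRpL11 and mRpL24, printed above, have an E-box at the TSS and no main summit, but each had a summit in another thresholded list. Among the genes with an E-box centred within 50 bp of the TSS, mRpL21, mRpL41, mRpS34 and mRpS35 had no summit in any thresholded list. The E-box was among the sites listed for the search, but the positions around the TSS were examined after its share was seen.

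**Figure D5:**
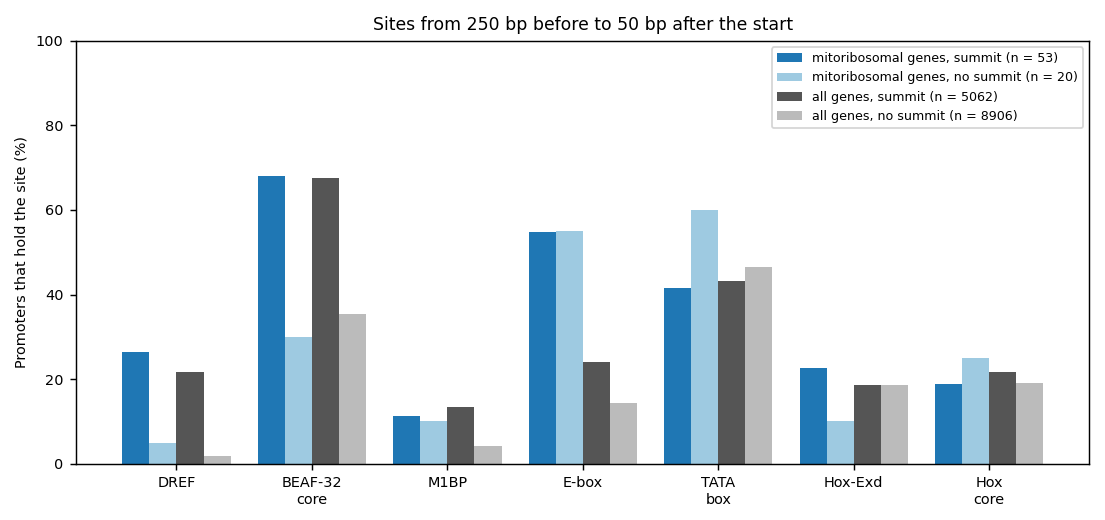
Share of promoters (%, vertical axis) that hold each site (horizontal axis) from 250 bp before to 50 bp after the start, for the 53 mitochondrial ribosomal protein genes with a main summit, the 20 without, and all protein-coding genes with and without one. The DREF site and the BEAF-32 core are higher in the genes with a summit, and the E-box stands at 54.7% and 55% in the first pair of bars against 24.1% and 14.4% in the second.

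In the promoters the Hox sites were near their background. TAATTA, a core read by many homeodomains, was in 15 of the 73 promoters (20.5%, against 20.1% of all), and in 18.9% of those with a summit against 25% of those without. TGATNNAT, a joint site of Hox proteins and their cofactor Exd, was in 14 (19.2%, against 18.6% of all). It was in 12 of the 53 promoters with a summit (22.6%) and 2 of the 20 without (10%), against 18.5% and 18.7% over all genes. Within 50 bp of the summit TGATNNAT was present at 1 of the 53 genes (1.89%, against 5.95% of all genes with a summit) and TAATTA at 7 (13.2%, against 7.27%). TATAAA was in 46.6% of the promoters, against 45.3% of all, and GAGAGAG, the site of GAGA factor, in 1 promoter (1.37%, against 6.2%). A palindrome of the kind bound by NRF-1 in vertebrates, GCGCA followed after 1 base of any kind by GCGC, was in 0 of 73, and in 0.752% of all. A match describes letters in a window and is not a measured binding site.

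The other genes of mitochondrial gene expression were taken by symbol, and 42 were found in the annotation. The list is broader than its name. It also holds the mitochondrial DNA genes PolG1, PolG2, mtSSB and mtDNA-helicase, as well as ClpX, Lon and Letm1. A summit lay at the TSS of 26 of the 42 (61.9%, against 36.2% of all genes) in the main list, 24 in replicate 1's and 19 in replicate 2's. Within the list, tRNA synthetases had 4 of 15 genes with a summit and the rest 22 of 27 (81.5%), a share above the 72.6% of the mitochondrial ribosomal protein genes. The 4 strongest were mtSSB, which coats single-stranded mitochondrial DNA during replication (2574 in the main list; 1349 and 1219 in replicates 1 and 2), the release factor gene mRF1 (1262; 658 and 594), mTerf5 (911; 510 and 397), of the transcription termination factor family, and tko (728; 365 and 353). tko encodes the small-subunit protein S12 and is thus a ribosomal protein that the choice by symbol leaves out, as is bonsai, the S15 gene, with 243 (main), 134 (replicate 1) and 115 (replicate 2). Among those without a main summit were the tRNA synthetase genes AlaRS-m, AsnRS-m, CysRS-m and GluRS-m, whose strongest entries in the main ranked list were 57.9, 69.96, 63.3 and 31.8.

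Beside the genes of the cytosolic ribosome and the respiratory chain, the mitochondrial ribosomal protein genes had the higher share with a summit in the main list. In the conservative list and the replicates' lists their share was about that of the cytosolic genes. Genes of the cytosolic ribosome had a summit at 60 of 92 (65.2%), with a median signal of 422, and nuclear respiratory chain genes at 54 of 91 (59.3%), with 206. In the conservative list the shares were 67.4% and 61.5%, against 68.5% for the mitochondrial ribosomal protein genes. In replicate 1's list the shares were 63% and 47.3%, against 63% for the mitochondrial ribosomal protein genes. In replicate 2's list they were 56.5% and 45.1%, against 56.2% for the mitochondrial ribosomal protein genes. Among genes with a neighbour the main-list shares were 74.1% for the mitochondrial ribosomal, 75.7% for the cytosolic and 81% for the respiratory genes. Without a neighbour they were 68.4%, 58.2% and 40.8%. The higher share in the main list thus did not hold among genes with a neighbour. The symbols of the cytosolic list include paralogues such as RpL10Aa. The respiratory list was also taken by symbol, takes in the ATP synthase genes and was not cleared of paralogues. No test of these differences was made.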

How the data were processed

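Per the submitters' file notes, the lists are peaks on dm6 made from each replicate's alignments, or from both, with a set of control alignments. No source used here names the aligner or the peak caller. The authors deposited a score capped at 1000, a signal per peak and, in the ranked lists, a −log10 of the irreproducible discovery rate (IDR). The lowest score in the thresholded lists was 830, an IDR of 0.01. Another 8 columns of each ranked list were not used.

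Summits were set against every TSS of protein-coding transcripts in BDGP6.54 (Ensembl release 115), within 500 bp, and the strongest was reported, with coordinates counted from 1. Sites were sought by exact letters on both strands with Python 3.11.15. Summit assignment and site search were tested on simulated data. The genes, lists and sites were chosen with earlier results of these data known. Genes named in full were the 12 strongest and 5 weakest with a summit, all without one, those nearest the distance limit, those with the highest and lowest replicate ratios, those with several summits, those lacking a peak in a replicate and those with a DREF or M1BP site. In the expression list, 1 symbol was matched through a RefSeq synonym and 6 of 34 were not matched. Peaks and genes are not replicates, so counts are given beside those over all protein-coding genes, with no test. Alternatives covered the distance, the list, each replicate alone, the TSS, the score and the site window. The neighbour of 1 named gene is not reported here.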

Additional observations from a re-analysis of the deposited data

How the results depend on the processing

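The count of 53 genes with a summit ran, with both replicates, from 49 with a distance of 250 bp to 71 with all ranked entries, with 2 exceptions. It was 36 when the gene's own TSS had to be the nearest. That count takes in a gene if any of its summits met the rule, not only the strongest, which was used above. It was 31 among peaks above the median signal, where 24% of all genes had a summit. Leaving out either replicate gave 41 to 46 genes and a difference from all genes of 25.7 to 32.2 percentage points, against 36.4 with both. That difference was 22.3 when the own TSS had to be the nearest, and stayed above 0 under every alternative run for it. The median signal of 188 was 201 with distances of 250 and 1000 bp, 204 in the conservative list, 172 with the nearest TSS only and 168 with every peak counted once. It was 129 to 141 in the replicates' own lists, which had a summit at fewer of these genes. Over all genes with a summit the median was also lower there, at 161 in replicate 1 and 147 in replicate 2, against 232. The median distance of 57 bp was 55.5 to 65 in the replicates' own lists. With the core CGATA in place of the DREF site, 42 promoters had a match instead of 15, since the shorter word is contained in the longer. Without a replicate, 19 to 24 genes of the mitochondrial expression list had a summit, against 26. No paired analysis was possible because there was 1 group. Depth is unknown from the files, so a gene without a listed peak had none detected at these thresholds, and no limit of detection can be given.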
